A study of Mus musculus with 12 samples.

Results

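The suppressors of cytokine signalling (SOCS) family has 8 members in the mouse, Cish and Socs1 to Socs7, and all 8 were found by their gene symbol among the 55487 features of the deposited table, which was made from natural killer (NK) cells of the mouse. All 8 passed the filter on low values that left 12364 genes for testing. SOCS proteins are feedback inhibitors of cytokine receptors that signal through Janus kinases (JAKs) and STAT transcription factors. Each carries an SH2 domain, which docks on phosphorylated tyrosines, and a SOCS box, which recruits elongins and a cullin to form a ubiquitin ligase. Several are themselves STAT target genes, so their transcripts are commonly read as a record of cytokine signalling. In NK cells the protein made from Cish is known as a brake on the response to interleukin 15.

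The series compared 12 samples of NK cells in 3 groups of 4, and every group, the controls included, carried the same reporter allele at the interferon gamma gene, in the strain B6.129S4-Ifngtm3.1Lky/J with the genotype given as mut/mut. The labels of all 12 samples also name HD IL-15, and the series describes the cells as primed with interleukin 15. Control cells were unstimulated. The other cells received anti-NK1.1, an antibody against an activating surface receptor of NK cells, for 6 hours, and were sorted by whether the yellow fluorescent reporter was absent (YFP-) or present (YFP+). Within each group the samples are labelled f2, m2, m3 and m4, where the titles write F for the first. The labels do not give the age of the mice, nor whether samples come from separate animals or equal labels from 1 animal, so p-values measure only the spread between these samples.

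Libraries held 32143536 to 54242394 reads. Levels are given as CPM, the reads of a gene per 1000000 reads of its library, and 3 reads, the limit that a count of 0 allows, came to 0.0553 to 0.0933 CPM. Ifng, the gene that holds the reporter, averaged 3.92 ± 0.239 CPM (SD, n = 4) without stimulation, 45.8 ± 7.37 CPM in YFP- samples and 329 ± 18.2 CPM in YFP+ samples, an order that matched the sort labels, although YFP- samples also held Ifng RNA. Reads on rRNA-like features made up 30.7 ± 3.38% of unstimulated libraries, 21.2 ± 6.27% of YFP- libraries and 20.7 ± 7.22% of YFP+ libraries, and were highest in sample m3 of both stimulated groups (30.3% and 29.8%). All 14 NK cell markers reached 1 CPM, with summed levels of 15166 to 17436 CPM without stimulation, 10117 to 12662 CPM for YFP- and 11210 to 12090 CPM for YFP+. Klrb1c, which encodes NK1.1 itself, ran from 290 to 327 CPM, 57.6 to 86.6 CPM and 3.70 to 8.97 CPM in the same order. Of other cell types, 7 of 8 T cell markers reached 1 CPM in a sample, with sums of 144 to 202, 102 to 147 and 86.4 to 144 CPM, while Cd4 stayed under 1 CPM and Cd3e did not exceed 1.49 CPM. Within that list Trac ran from 6.83 to 8.47, 27.6 to 41.9 and 40.4 to 54.5 CPM in the 3 groups and Cd6 was higher in stimulated samples too, while Lef1 went the other way (78.0 to 90.7, 25.5 to 41.1 and 12.4 to 19.0 CPM), and Cd3g and Cd3d had their lowest ranges in YFP+ samples. Only Cd79b among 7 B cell markers and only Cd68 among 10 myeloid markers reached 1 CPM, S100a9 was at 0 in every sample, and none of 6 red cell markers reached 1 CPM. Myeloid markers summed to 51.9 to 59.9, 27.1 to 43.2 and 14.4 to 23.7 CPM and B cell markers to 2.03 to 4.38, 1.04 to 2.92 and 0.8287 to 1.41 CPM. The 6 dendritic cell markers summed to 2.28 to 3.79, 18.8 to 22.1 and 7.05 to 13.6 CPM in the same order, and reached 1 CPM singly only for Zbtb46 and Xcr1, with Flt3, Siglech, Clec9a and Cd209a under 1 CPM. The part of these marker levels and of the rRNA-like share in the results was not tested.

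Start-site sequence was shown for the members with a motif match, because STAT and interferon regulatory factors (IRFs) are known to bind near SOCS genes. RefSeq promoter windows on GRCm38.p6, from 250 bases before to 50 after the transcript start, matched 4 of the 8 members (Cish, Socs1, Socs3 and Socs4). Both strands were searched for 4 motifs: the STAT motif TTCNNNGAA, the same STAT motif with 4 bases in place of 3 between TTC and GAA, the IRF motif of 2 GAAA repeats set apart by any 2 bases, and the AP-1 motif TGANTCA. Capitals below mark the matches, and each run is written 5′ to 3′ on the strand of its gene.
Cish, chr9:107296654-107296683, + strand: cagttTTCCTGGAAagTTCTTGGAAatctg
Socs3, chr11:117969501-117969530, - strand: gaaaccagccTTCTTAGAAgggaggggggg
Socs1, chr16:10785597-10785626, - strand: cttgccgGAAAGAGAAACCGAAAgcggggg
The Cish run spans positions -5 to 25 around the RefSeq start and holds 2 matches to TTCNNNGAA, TTCCTGGAA at 1 to 9 and TTCTTGGAA at 12 to 20. In the GENCODE annotation this run lies within annotated UTR of Cish, and Gm17040, a pseudogene on the opposite strand, overlaps it. The other 2 runs lie outside the annotated exons of their genes. The Socs1 run lies upstream of the annotated gene, while the Socs3 run lies within the annotated span of Socs3, between exons. The Socs3 run holds 1 match to the same motif, TTCTTAGAA at -154 to -146. The Socs1 run holds 2 matches to the IRF motif that overlap each other, GAAAGAGAAA at -83 to -74 and GAAACCGAAA at -77 to -68. The Socs4 window held no match to any of the 4 motifs. Among 32851 promoter windows of the same length, 8.30% held the first STAT motif, 6.95% the one with 4 bases between, 3.44% the IRF motif and 7.81% TGANTCA. A match describes letters and is not a measured binding site.

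After 6 hours of anti-NK1.1, Cish, Socs4 and Socs7 were higher and Socs1 and Socs2 lower than in unstimulated cells, in YFP- and in YFP+ cells. Cish rose most, 4.59-fold in YFP- and 4.57-fold in YFP+ cells. Socs1 and Socs2 were lower by 1.85-fold and 1.999-fold in YFP- cells, and by 2.96-fold and 3.20-fold in YFP+ cells. Socs3, Socs5 and Socs6 passed the test in none of the 3 comparisons. In limma on the deposited log2 CPM, with Benjamini-Hochberg adjusted p under 0.05 over all 12364 genes, 5 of 8 members were called in YFP- against unstimulated cells, where 51.1% of all genes were called (30.2% higher, 20.9% lower). Of the genes called there 59.1% were higher, against 47.1% with library totals that exclude rRNA-like features, and the median of all genes was 0.14 as deposited and -0.05 with those totals. Under quantile normalization, centring on the sample median and trimmed-mean scaling 49.3%, 49.9% and 51.6% were higher, with medians of -0.007, -0.003 and 0.02. In YFP+ against unstimulated cells 5 of 8 were called, beside 60.8% of all genes (27.5% higher, 33.3% lower). The number of members called was therefore near the background in both, and what follows concerns each member's own size and direction. Both comparisons use the same 4 unstimulated samples and are not independent of each other. How many of all genes separate the groups without overlap was not counted, so such separation only describes a member below. In these bulk samples, fewer cells that express a gene and less RNA per cell cannot be told apart.

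**Figure D1:**
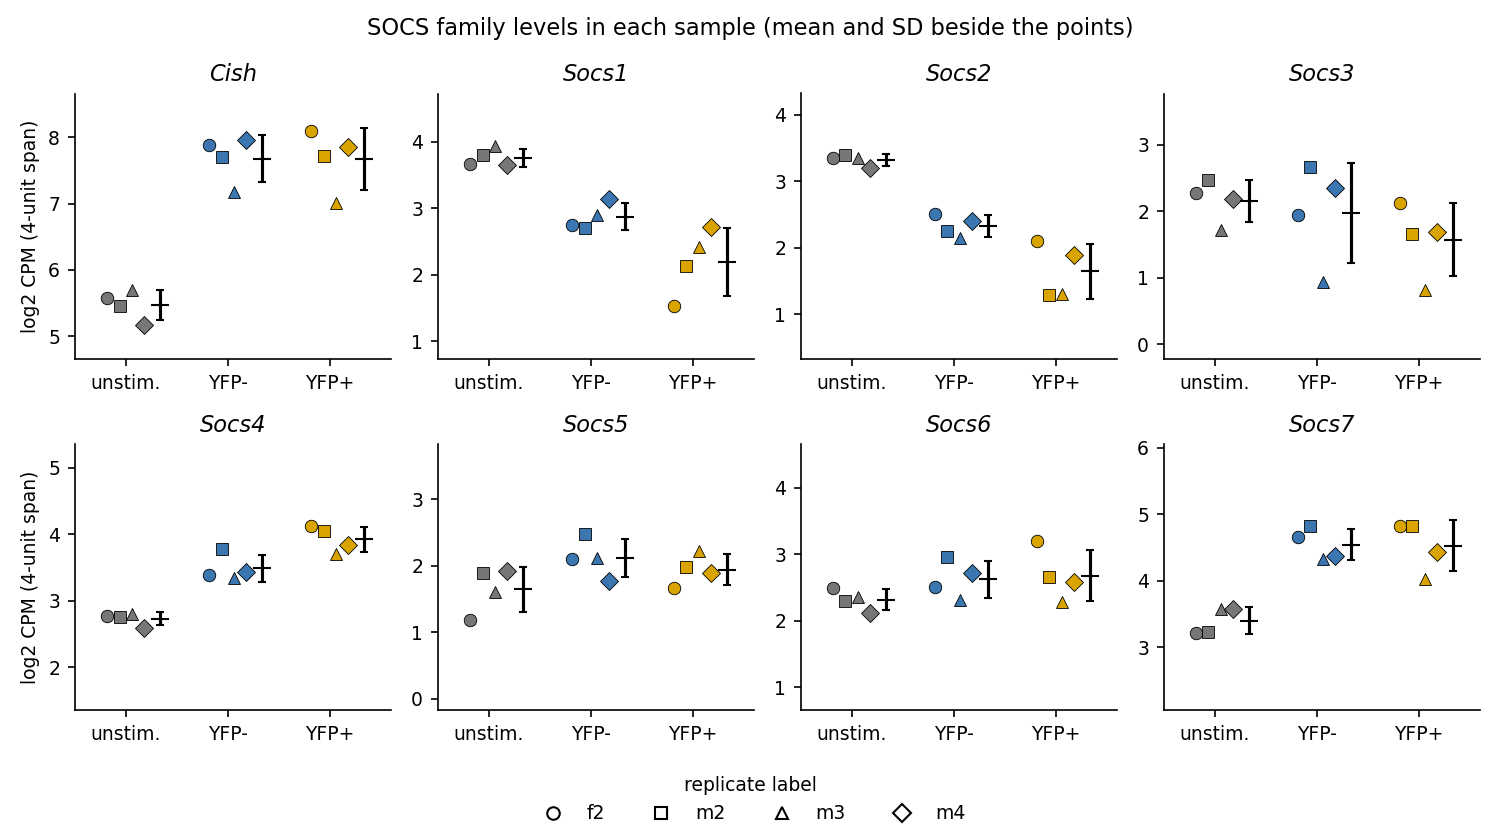
Level of each SOCS family gene in every sample, as deposited log2 CPM (vertical axis, a span of 4 log2 units in each panel), for unstimulated, YFP- and YFP+ samples; point shapes give the replicate label and bars the mean and SD of 4 samples. All stimulated samples lie above all unstimulated samples for Cish, Socs4 and Socs7, and below them for Socs1 and Socs2. The share of all genes that separate in this way was not counted.

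Cish (ENSMUSG00000032578, chr9:107296026-107302784, + strand, GENCODE M21 on GRCm38) encodes CIS, which competes for receptor tyrosines where STAT5 docks. It stood at 47.9, 44.0, 51.8 and 36.1 CPM in unstimulated samples f2, m2, m3 and m4. The YFP- samples held 235, 207, 144 and 249 CPM and the YFP+ samples 273, 211, 129 and 232 CPM, in the same label order. Every stimulated sample was above every unstimulated sample, and sample m3 was the lowest of both stimulated groups. The log2 change was 2.20 (95% interval 1.71 to 2.68, limma adjusted p = 4.85e-06) in YFP- and 2.19 (1.70 to 2.68, adjusted p = 1.90e-06) in YFP+ cells. Between YFP+ and YFP- cells the difference was -0.01 (-0.49 to 0.48, adjusted p = 0.99), with 2 labels higher and 2 lower in YFP+. Without the 3 m3 samples the changes from unstimulated cells were 2.44 and 2.48. Cish shares exon sequence on the opposite strand with Gm17040 (261 bases, 0 to 33 reads per sample) and Gm17041 (479 bases, 0 reads in every sample). The strand setting of the counting is not given in the sources used here, so reads of these overlaps could not be assigned with certainty.

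Socs1 and Socs3 are the members with a kinase inhibitory region, by which their proteins block JAK activity. SOCS1 is known chiefly as an inhibitor of interferon signalling. Socs1 (ENSMUSG00000038037, chr16:10782240-10785536, - strand) was at 12.7, 13.97, 15.2 and 12.5 CPM in unstimulated samples f2, m2, m3 and m4. Its levels were 6.70, 6.49, 7.44 and 8.83 CPM in YFP- and 2.86, 4.35, 5.30 and 6.56 CPM in YFP+ samples. All stimulated samples lay below all unstimulated ones, while the YFP- and YFP+ ranges overlapped through the YFP+ sample m4. On the log2 scale Socs1 fell by 0.89 in YFP- (95% interval -1.36 to -0.42, limma adjusted p = 0.0042) and by 1.57 in YFP+ cells (-2.04 to -1.09, adjusted p = 3.20e-05). The spread grew with the fall, from an SD of 0.13 in unstimulated to 0.20 in YFP- and 0.51 in YFP+ samples in log2 CPM. That difference in spread was not tested.

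Socs3 (ENSMUSG00000053113, chr11:117966079-117970047, - strand) encodes an inhibitor known chiefly from receptors that use gp130, the interleukin 6 family among them. Unstimulated samples held 4.80, 5.498, 3.26 and 4.53 CPM, YFP- samples 3.84, 6.34, 1.89 and 5.10 CPM, and YFP+ samples 4.33, 3.15, 1.74 and 3.20 CPM, in the order f2, m2, m3 and m4. The 3 groups overlapped, and m3 was the lowest sample in each of them. The log2 change was -0.18 (95% interval -0.95 to 0.58, limma adjusted p = 0.69) in YFP- and -0.59 (-1.35 to 0.18, adjusted p = 0.17) in YFP+ cells, the latter negative in 4 of 4 labels. These intervals are the widest of the family and do not show that Socs3 was unaffected. Without YFP- sample m3 the first value was 0.17, and without all m3 samples it was 0.02. When library totals excluded rRNA-like features the second was -0.78 and passed the test (limma adjusted p = 0.042).

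Socs2 (ENSMUSG00000020027, chr10:95385362-95417180, - strand) encodes an inhibitor best known from growth hormone signalling and is a STAT5 target in many cell types, as Cish is. Its levels were 10.2, 10.5, 10.2 and 9.16 CPM in unstimulated, 5.69, 4.74, 4.401 and 5.26 CPM in YFP- and 4.27, 2.43, 2.46 and 3.70 CPM in YFP+ samples f2, m2, m3 and m4. The 3 groups did not overlap, with unstimulated samples highest and YFP+ samples lowest. Socs2 fell by 0.999 on the log2 scale in YFP- (95% interval -1.42 to -0.58, limma adjusted p = 0.00079) and by 1.68 in YFP+ cells (-2.09 to -1.26, adjusted p = 5.41e-06). Socs2 therefore moved opposite to Cish in each stimulated sample, relative to every unstimulated one.

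Socs4 and Socs5 encode members with long amino-terminal regions, linked mainly to the receptor of epidermal growth factor. Socs4 (ENSMUSG00000048379, chr14:47276931-47296102, + strand) was at 6.79, 6.76, 6.98 and 6.01 CPM in unstimulated, 10.5, 13.7, 10.1 and 10.7 CPM in YFP- and 17.4, 16.5, 13.0 and 14.2 CPM in YFP+ samples f2, m2, m3 and m4. All stimulated samples were above the unstimulated range, and only the YFP- sample m2 reached into the YFP+ range. It rose by 0.75 (95% interval 0.44 to 1.07, limma adjusted p = 0.00076) in YFP- and by 1.19 (0.88 to 1.51, adjusted p = 9.09e-06) in YFP+ cells, both in log2. Socs5 (ENSMUSG00000037104, chr17:87107679-87137839, + strand) held 2.26, 3.68, 3.04 and 3.76 CPM in unstimulated, 4.29, 5.55, 4.33 and 3.38 CPM in YFP- and 3.15, 3.95, 4.67 and 3.70 CPM in YFP+ samples. Its groups overlapped, with log2 changes of 0.47 (0.01 to 0.93, limma adjusted p = 0.084) in YFP- and 0.29 (-0.17 to 0.76, adjusted p = 0.25) in YFP+ cells. Without YFP- sample m4 the first of these was 0.59 and passed (adjusted p = 0.0498), and under quantile normalization the second was 0.63 and passed (adjusted p = 0.018).

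Socs6 and Socs7 encode members studied mainly in insulin and growth factor receptor signalling. Socs7 (ENSMUSG00000038485, chr11:97362551-97398542, + strand) stood at 9.29, 9.34, 11.8 and 11.9 CPM in unstimulated, 25.1, 28.3, 20.0 and 20.7 CPM in YFP- and 28.3, 28.4, 16.3 and 21.6 CPM in YFP+ samples f2, m2, m3 and m4. Every stimulated sample was above every unstimulated one, and YFP+ and YFP- samples overlapped. Its log2 change was 1.14 (95% interval 0.73 to 1.56, limma adjusted p = 0.00028) in YFP- and 1.13 (0.71 to 1.55, adjusted p = 0.00018) in YFP+ cells. Socs6 (ENSMUSG00000056153, chr18:88665224-88927481, - strand) held 5.61, 4.89, 5.12 and 4.32 CPM in unstimulated, 5.67, 7.74, 4.95 and 6.59 CPM in YFP- and 9.14, 6.31, 4.83 and 5.94 CPM in YFP+ samples. The groups overlapped, with m3 lowest in both stimulated groups, and log2 changes of 0.31 (-0.13 to 0.75, limma adjusted p = 0.22) and 0.36 (-0.08 to 0.80, adjusted p = 0.14). Against unstimulated cells the YFP+ value passed under quantile normalization (0.62, adjusted p = 0.0077), under centring on the sample median (0.48, adjusted p = 0.028), under trimmed-mean scaling (0.44, adjusted p = 0.045) and without YFP+ sample m3 (0.49, adjusted p = 0.0499).

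**Figure D2:**
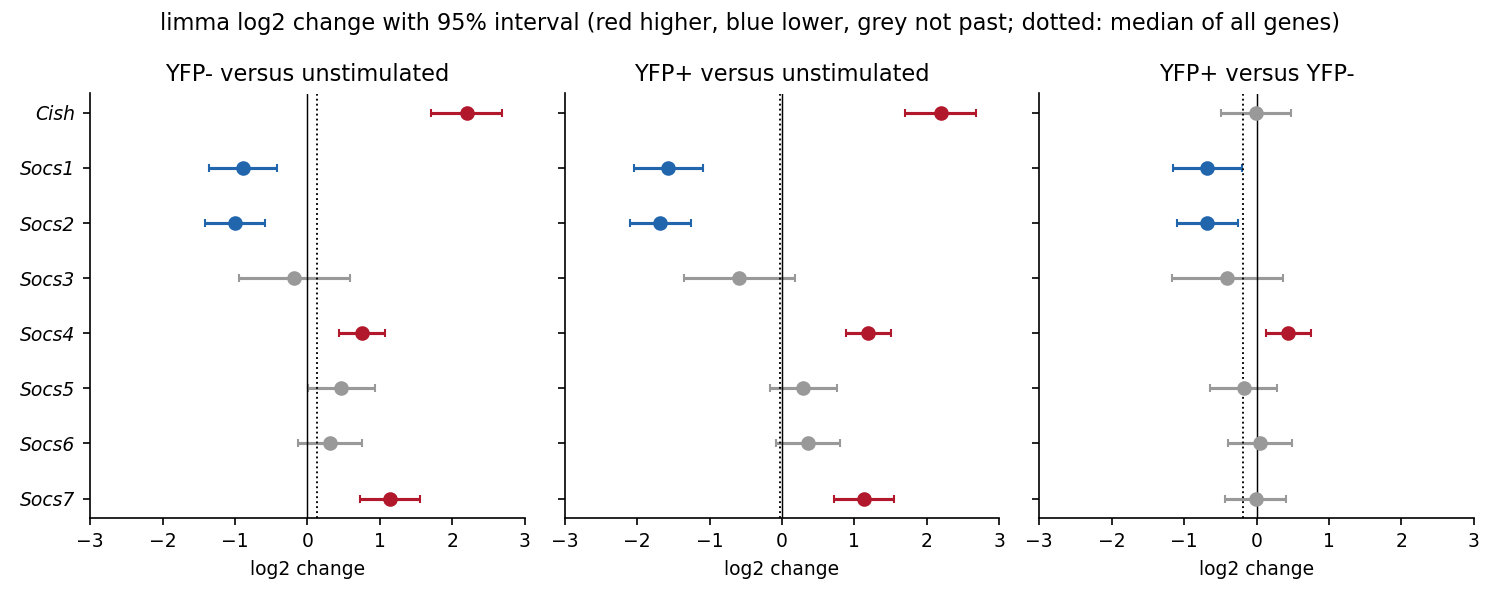
limma log2 change of each SOCS family gene with its 95% interval in the 3 comparisons; red and blue mark genes higher or lower at adjusted p under 0.05, grey the others, and the dotted line is the median of all genes tested. Cish reached 2.20 and 2.19 against unstimulated cells, and its interval between YFP+ and YFP- cells spans zero.

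The comparison of YFP+ with YFP- cells asked how members differed between stimulated cells with and without the reporter. Socs1 and Socs2 were lower and Socs4 was higher in YFP+ cells, each in 4 of 4 labels. Socs1 fell by 0.68 on the log2 scale (95% interval -1.15 to -0.21, limma adjusted p = 0.041), Socs2 by 0.68 (-1.09 to -0.26, adjusted p = 0.023), and Socs4 rose by 0.44 (0.13 to 0.75, adjusted p = 0.046). Thus 3 of 8 members were called, where 21.8% of all genes were (3.28% higher, 18.5% lower). Both lower members share the direction that most called genes had, and Socs4 does not. Of the genes called, 15.1% were higher in YFP+ cells, against 44.9% under quantile normalization, 50.2% under centring on the sample median and 41.0% under trimmed-mean scaling. The median gene stood at -0.19 in this comparison as deposited and at 0.06, 0.07 and 0.00 under those scalings. With totals that exclude rRNA-like features the skew stayed, at 14.1% higher and a median of -0.20. Quantile normalization and centring align the samples on all genes, and trimmed-mean scaling on those left after trimming. Each of the 3 by itself draws the median towards 0. Relative to the median gene, Socs1 stood at -0.49, Socs2 at -0.49 and Socs4 at 0.63.

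These 3 differences kept their direction in all 28 alternatives, but their calls did not hold throughout. Socs1 and Socs2 missed the threshold under quantile, centring and trimmed-mean scaling, at -0.35 to -0.49 (Socs1) and -0.33 to -0.49 (Socs2), while Socs4 reached 0.63 to 0.70 and passed. Socs1 also missed it with totals that exclude rRNA-like features, at -0.69 (adjusted p = 0.059), where its size was not smaller. With 1 library left out, Socs1 was called only without YFP+ sample m3 or m4 (adjusted p = 0.051 to 0.11 otherwise), and Socs4 only without YFP- sample m2 or YFP+ sample m3 (0.052 to 0.11 otherwise). Socs2 lost its call without YFP- sample f2 (adjusted p = 0.072) or m4 (0.055) and without YFP+ sample m2 (0.062) or m3 (0.063). Without all samples labelled m2, 1571 genes in all were called in place of 2691, and without those labelled m4, 1643.

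The other 5 members did not pass the test between YFP+ and YFP- cells. Socs7 differed by -0.01 (95% interval -0.43 to 0.40, limma adjusted p = 0.97), Socs6 by 0.05 (-0.39 to 0.49, adjusted p = 0.88) and Socs5 by -0.18 (-0.64 to 0.29, adjusted p = 0.60). Socs3 differed by -0.40 (-1.17 to 0.36, adjusted p = 0.45). For Cish, Socs5 and Socs7 the sign turned positive under quantile, centring and trimmed-mean scaling. The YFP- means of Cish and Socs7 stood at 1.003 and 1.01 of the way from the unstimulated to the YFP+ mean in log2 CPM. By the same measure YFP- cells stood at 0.57 for Socs1, 0.60 for Socs2 and 0.63 for Socs4, between the other groups.

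**Figure D3:**
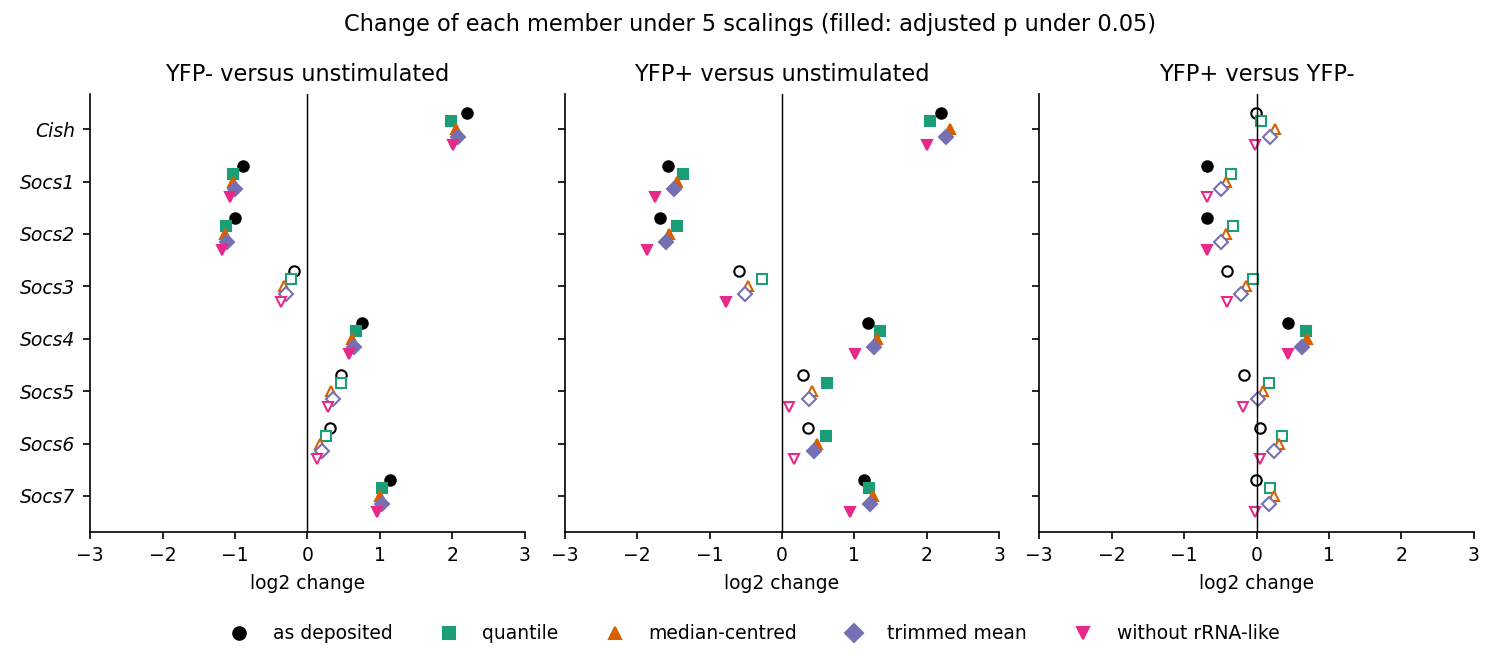
log2 change of each SOCS family gene in the 3 comparisons as deposited and under 4 other scalings of the samples; filled symbols have a limma adjusted p under 0.05. The signs of Cish, Socs1, Socs2, Socs4 and Socs7 against unstimulated cells are the same under all 5, while Cish, Socs5 and Socs7 change sign between YFP+ and YFP- cells.

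Ratios of members within a sample are not changed by a scaling that multiplies all genes of the sample by 1 factor, although quantile normalization does change them. The log2 ratio of Socs4 to Socs2 CPM averaged -0.59 ± 0.04 (SD, n = 4) in unstimulated samples, 1.16 ± 0.28 in YFP- samples and 2.28 ± 0.38 in YFP+ samples. Its YFP- range of 0.88 to 1.53 did not reach the YFP+ range of 1.94 to 2.76. The ratio of Cish to Socs2 went from 2.16 ± 0.16 through 5.35 ± 0.23 to 6.03 ± 0.30, again with no overlap of the YFP- range (5.04 to 5.57) and the YFP+ range (5.71 to 6.44). The YFP- and YFP+ ranges of Cish over Socs1 (4.28 to 5.13 and 4.602 to 6.57) and of Socs7 over Socs1 (1.23 to 2.13 and 1.62 to 3.31) did overlap. For 2 other pairs the mean ratio was alike in both stimulated groups. Cish over Socs7 was 3.14 ± 0.35 in YFP- and 3.14 ± 0.25 in YFP+ samples, after 2.08 ± 0.34 in unstimulated ones. Socs1 over Socs2 was 0.44 ± 0.11, 0.55 ± 0.25 and 0.55 ± 0.76 in the 3 groups, so these 2 falling members kept about the same mean ratio, with a wide spread in YFP+ samples. These pairs were chosen with the members' values known, and the ratios are descriptions without a test.

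Levels were compared between members per kilobase of annotated exon, since their exon lengths run from 2.891 kb for Socs3 to 11.349 kb for Socs6. In unstimulated cells Cish was highest at 7.01 ± 1.04 CPM per kb, followed by Socs1 at 4.67 ± 0.441. Socs3 and Socs7 came next at 1.56 ± 0.323 and 1.46 ± 0.204, with overlapping ranges. Socs2 (1.05 ± 0.0620) and Socs4 (0.965 ± 0.0621) followed and overlapped, as did Socs5 (0.496 ± 0.109) and Socs6 (0.439 ± 0.0474) at the bottom of the order. After stimulation Cish was 10.1 times the next member in both groups, at 32.5 ± 7.24 CPM per kb in YFP- and 32.9 ± 9.42 in YFP+ samples, and that next member was Socs7 at 3.23 ± 0.538 and 3.25 ± 0.805. In YFP- samples Socs1 (2.53 ± 0.364) overlapped Socs7 and was apart from Socs4 (1.64 ± 0.238), below which neighbouring members overlapped. In YFP+ samples all neighbours below Cish overlapped, in the order Socs7, Socs4, Socs1, Socs3, Socs5, Socs6 and Socs2. Socs2 went from the fifth place to the last.

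**Figure D4:**
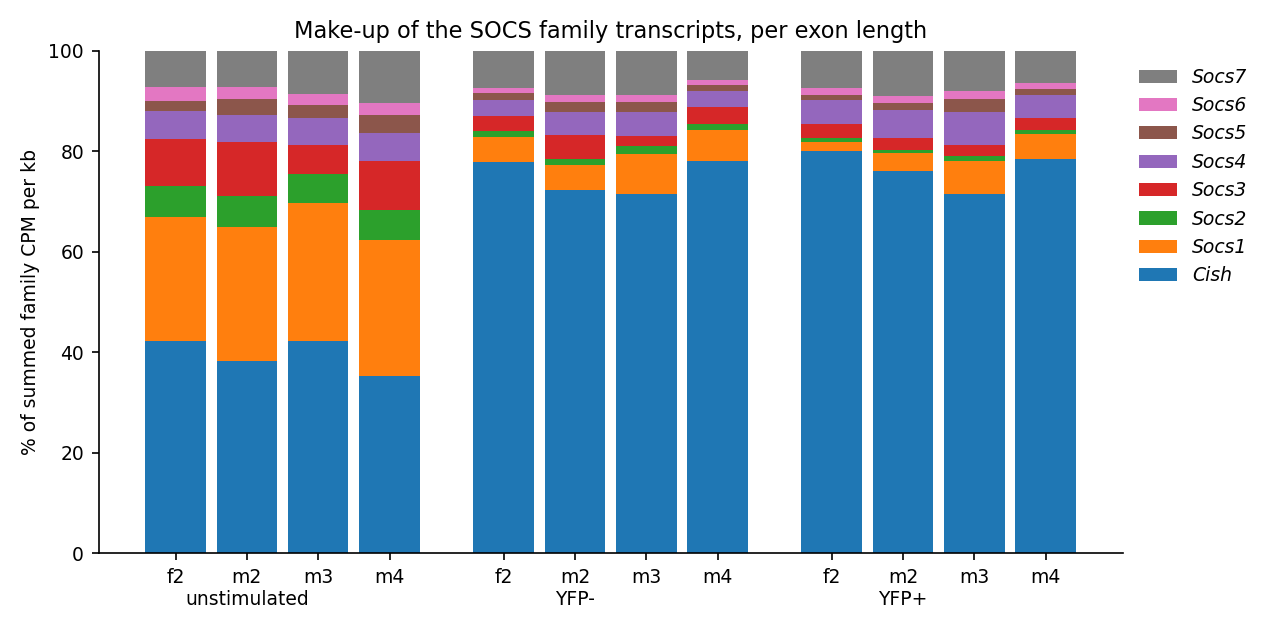
Share of each member in the summed SOCS family level per sample, in percent of CPM per kb of exon, with 1 bar for each of the 12 samples. Cish takes 35.3 to 42.3% in unstimulated samples and 71.4% or more in every stimulated sample.

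Summed over the 8 members, the family held 17.7 ± 1.30 CPM per kb in unstimulated samples, 43.2 ± 8.07 in YFP- samples and 42.6 ± 10.6 in YFP+ samples. Without Cish the sum was 10.6 ± 0.460, 10.7 ± 1.38 and 9.70 ± 1.20 CPM per kb, so the larger family sum was carried by Cish. Cish made up 39.5 ± 3.39% of the family in unstimulated samples, 74.9 ± 3.59% in YFP- samples and 76.5 ± 3.67% in YFP+ samples. Socs1 went from 26.5 ± 1.24% to 6.03 ± 1.49% and 4.18 ± 1.99%, and Socs2 from 5.96 ± 0.234% to 1.24 ± 0.167% and 0.800 ± 0.143%. Socs7 rose in level but took a similar share throughout (8.31 ± 1.47%, 7.63 ± 1.43% and 7.70 ± 1.095%), while Socs4 took 5.47 ± 0.113%, 3.88 ± 0.801% and 5.39 ± 1.01%. Annotated exon length may not be the length of the transcripts present, and the shares move with it. Counted per read, Cish made up 45.5%, 76.7% and 77.2%, Socs1 13.8%, 2.80% and 1.92%, Socs4 6.74%, 4.26% and 5.82%, and Socs7 10.8%, 8.83% and 8.79%.

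Cytokine receptors and their kinases, on which SOCS proteins act, were read from lists of 99 pathway genes, of which 83 were tested. Of 16 receptor chains tested, 7 were higher and 3 lower in YFP- than in unstimulated cells, and 5 were higher and 9 lower in YFP+ cells. Of all genes 51.1% were called in the first comparison (30.2% higher, 20.9% lower) and 60.8% in the second (27.5% higher, 33.3% lower), and the receptor counts in YFP- cells are near that background. Il2ra, the high-affinity chain of the interleukin 2 receptor, went from 7.20 ± 1.34 CPM to 288 ± 54.1 (YFP-) and 232 ± 38.0 CPM (YFP+) (log2 changes 5.32 and 5.01, limma adjusted p = 2.67e-10 and 2.71e-10). Il21r rose too, in YFP- (log2 change 2.40, limma adjusted p = 2.16e-05) and in YFP+ cells (2.52, adjusted p = 6.26e-06). So did Il15ra, by 1.40 in YFP- (limma adjusted p = 1.04e-05) and 1.24 in YFP+ cells (adjusted p = 1.34e-05). Ifngr1, the ligand-binding chain of the interferon gamma receptor, fell by 3.29 in YFP+ cells (adjusted p = 3.62e-05), from 469 ± 168 to 54.8 ± 31.1 CPM, with 229 ± 42.4 CPM in YFP- samples. Il7r, the interleukin 7 receptor chain, was called lower in YFP+ cells, at 0.0414 ± 0.0829 CPM after 1.5005 ± 0.864 in unstimulated and 1.37 ± 0.294 in YFP- samples, a YFP+ level at or below the counting floor. Between YFP+ and YFP- cells, where 18.5% of all genes were lower and 3.28% higher, 8 receptor chains were lower and 0 higher, among them Il27ra (-1.46, limma adjusted p = 0.00034).

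All 4 Janus kinases were expressed, and they did not move together. Jak1 went from 319 ± 16.3 CPM without stimulation to 218 ± 41.5 (YFP-) and 135 ± 16.8 CPM (YFP+), and Jak3, the partner of the common cytokine receptor chain, from 67.3 ± 8.93 to 22.8 ± 5.11 and 12.1 ± 3.20. Both fell in both stimulated groups (limma log2 changes -0.57 and -1.25 for Jak1, -1.58 and -2.50 for Jak3, adjusted p of 0.0047 or below). Jak2 rose, from 30.4 ± 4.39 to 72.6 ± 12.9 and 68.4 ± 21.3 CPM (log2 changes 1.25 and 1.13, adjusted p = 0.00018 and 0.00024). Tyk2 was at 27.8 ± 2.11, 37.1 ± 6.54 and 24.9 ± 3.53 CPM, called higher in YFP- cells (0.40, adjusted p = 0.037), which centring, quantile normalization and totals without rRNA-like features ended. Jak1, Jak3 and Tyk2 were lower in YFP+ than in YFP- cells (log2 -0.68, -0.92 and -0.57), the last no longer past the test after centring (adjusted p = 0.062).

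Among the STAT genes the largest change was in Stat5a, which encodes a transducer of interleukin 2 and interleukin 15 signals. Stat5a rose from 9.31 ± 1.35 CPM to 75.8 ± 13.4 (YFP-) and 89.9 ± 10.6 CPM (YFP+) (log2 changes 3.02 and 3.27, limma adjusted p = 2.20e-08 and 3.04e-09). Its neighbour Stat5b was at 23.1 ± 3.38, 33.8 ± 4.24 and 41.5 ± 5.05 CPM (log2 changes 0.55 and 0.85, adjusted p = 0.0062 and 0.00018), and its YFP- call was lost under quantile normalization (adjusted p = 0.056) and with totals that exclude rRNA-like features (0.0504). Stat6 rose in YFP- cells (0.51, adjusted p = 0.0039), also lost under quantile normalization (0.054), and stood at 0.23 in YFP+ cells (adjusted p = 0.13). Stat2 fell in both, from 12.2 ± 1.35 CPM to 7.03 ± 2.03 and 4.90 ± 0.403 (-0.83 and -1.31, adjusted p = 0.0023 and 3.63e-05). Stat4, used by the interleukin 12 receptor, held 24.9 ± 1.85, 21.5 ± 13.1 and 5.03 ± 2.57 CPM and fell in YFP+ cells, by 2.42 against unstimulated (adjusted p = 6.84e-05) and by 2.03 against YFP- cells (adjusted p = 0.0016). Stat3 held 79.8 ± 7.62, 97.8 ± 30.5 and 59.5 ± 15.0 CPM, did not pass in YFP- cells (adjusted p = 0.34) and was lower in YFP+ than in YFP- cells (log2 change -0.70, adjusted p = 0.029), a call that was lost after centring (adjusted p = 0.061).

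The SOCS box joins its member to a ubiquitin ligase, whose subunits and partner enzymes formed a list of 9 genes. Of these 6 were higher and 1 lower in YFP- cells, and 5 higher and 0 lower in YFP+ cells, both against unstimulated. Of all genes 51.1% were called in the first comparison (30.2% higher, 20.9% lower) and 60.8% in the second (27.5% higher, 33.3% lower). The total called in YFP+ cells was therefore no larger than the background in either direction together, while all of those called were higher. The list had medians of 0.55 and 0.57 on the log2 scale beside 0.14 and -0.03 for all genes. Ube2f, the enzyme that attaches NEDD8 to the cullin of this ligase, went from 22.6 ± 1.45 CPM to 76.6 ± 7.98 and 98.5 ± 13.5 (log2 changes 1.76 and 2.11, limma adjusted p = 2.89e-07 and 1.93e-08). Cul5, the cullin of most SOCS complexes, was at 8.41 ± 1.12, 15.3 ± 2.72 and 17.8 ± 1.74 CPM and rose by 1.08 in YFP+ cells (adjusted p = 4.30e-05). Cul2, a related cullin, rose by 0.89 and 0.87 (adjusted p = 0.00023 and 0.00017). None of the 9 was called by limma between YFP+ and YFP- cells as deposited, where 1 had an unadjusted p under 0.05 (Ube2f, log2 change 0.36, adjusted p = 0.067), while 1 to 4 were higher under the other 4 scalings.

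Other negative regulators of the pathway, mainly phosphatases, PIAS proteins and CBL ligases, gave 3 higher and 2 lower of 15 in YFP- against unstimulated cells, where 51.1% of all genes were called. Counts were 3 and 2 in YFP+ against unstimulated cells (60.8% of all genes called), and 0 and 4 between YFP+ and YFP- cells (21.8% called), the last near the background. Between YFP+ and YFP- cells they were 0 and 4 under quantile normalization and 0 and 6 with totals that exclude rRNA-like features. Under centring and under trimmed-mean scaling they were 0 and 1. Ptpn6, which encodes the phosphatase SHP-1, went from 92.2 ± 20.9 CPM to 364 ± 53.0 (YFP-) and 194 ± 82.8 CPM (YFP+) (log2 changes 2.005 and 0.99, limma adjusted p = 7.19e-05 and 0.0083), and was lower in YFP+ than in YFP- cells (-1.01, adjusted p = 0.022). Pias1 (-1.28, adjusted p = 0.043) and Usp18 (-1.18, adjusted p = 0.036) were also lower in YFP+ than in YFP- cells, and both calls were lost under centring and trimmed-mean scaling, that of Usp18 also under quantile normalization.

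**Figure D5:**
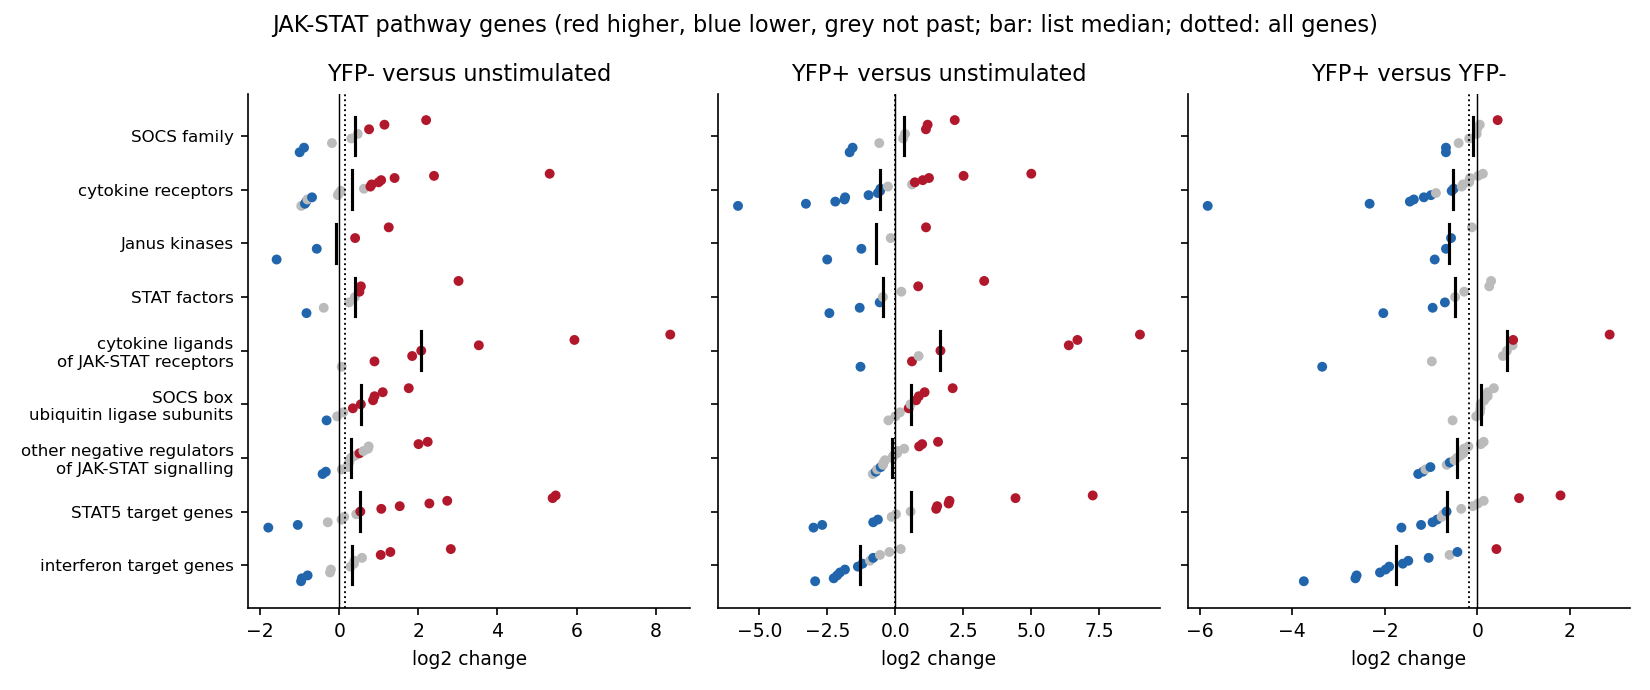
limma log2 change of each tested gene of the SOCS family and of 8 JAK-STAT lists in the 3 comparisons (axes differ in range); red and blue mark genes higher or lower at adjusted p under 0.05, grey the others, short bars the list median and dotted lines the median of all genes. Interferon target genes have a median of -1.76 between YFP+ and YFP- cells, beside -0.19 for all genes.

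The ligands and the target genes of the pathway were read in the same way. Of 16 ligand genes 7 were tested, among them Ifng, whose reporter defined the YFP sort. Counts were 6 higher and 0 lower in YFP- and 5 higher and 1 lower in YFP+ cells against unstimulated, Ifng included. Of all genes 51.1% were called in YFP- (30.2% higher, 20.9% lower) and 60.8% in YFP+ cells (27.5% higher, 33.3% lower). Csf2, the gene for GM-CSF, held at most 6 reads in any unstimulated sample and 13.8 ± 4.68 CPM in YFP- and 22.1 ± 9.32 CPM in YFP+ samples. Csf1 held at most 2 reads in any unstimulated sample and 1.87 ± 0.668 and 3.08 ± 0.672 CPM in the stimulated groups. Il15 was at 0.669 ± 0.222, 2.76 ± 0.417 and 0.278 ± 0.127 CPM, lower in YFP+ than in YFP- cells (log2 change -3.35, limma adjusted p = 5.32e-05). Il2 was at 5.28 ± 1.59, 9.85 ± 3.31 and 16.5 ± 3.83 CPM and higher in YFP+ than in YFP- cells (0.77, adjusted p = 0.045).

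Known STAT5 targets other than the SOCS genes included called genes of both directions. Of 13, 7 were higher and 2 lower in YFP-, and 6 higher and 4 lower in YFP+ cells, against unstimulated, where 30.2% of all genes were higher and 20.9% lower, and 27.5% higher and 33.3% lower. The list medians were 0.53 and 0.57 beside 0.14 and -0.03 for all genes. Between YFP+ and YFP- cells 2 were higher and 5 lower, where 3.28% of all genes were higher and 18.5% lower. The list median there was -0.67, and that of all genes -0.19. Under centring 2 were higher and 2 lower. Counts were 2 and 5 under quantile normalization and trimmed-mean scaling, and 2 and 6 with totals that exclude rRNA-like features. Bcl2l1, which encodes the survival protein BCL-XL, rose from 35.8 ± 7.53 to 238 ± 50.8 CPM in YFP- cells (log2 change 2.73, limma adjusted p = 2.50e-05). Tnfrsf4, which encodes the receptor OX40, went from 0.371 ± 0.169 to 15.4 ± 2.51 and 53.2 ± 4.69 CPM, and Lta from 1.46 ± 0.398 to 62.2 ± 19.9 and 31.3 ± 7.75 CPM. Ccnd3, which encodes cyclin D3, fell with Socs2, from 255 ± 8.59 through 74.3 ± 11.4 to 31.9 ± 4.55 CPM (log2 change -3.01 in YFP+ cells, adjusted p = 1.36e-09). Pim2 was at 318 ± 46.4, 154 ± 26.7 and 50.8 ± 14.9 CPM, lower in YFP+ than in YFP- cells (log2 change -1.64, adjusted p = 0.00015).

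Most interferon target genes tested were lower in YFP+ than in YFP- cells. Of 12 tested, 3 were higher and 3 lower in YFP- than in unstimulated cells, 0 higher and 8 lower in YFP+ than in unstimulated cells, and 1 higher and 10 lower in YFP+ than in YFP- cells, where the list median was -1.76 and that of all genes -0.19. Of all genes 51.1%, 60.8% and 21.8% were called in these comparisons, so the counts against unstimulated cells are near the background. Under the other scalings 9 or 10 were lower and the median ran from -1.49 to -1.77. Irf1 went from 37.9 ± 7.59 CPM through 32.2 ± 5.61 to 9.74 ± 5.58 (log2 change -2.14 in YFP+ against unstimulated, limma adjusted p = 0.00010). Irf7 went from 38.1 ± 3.06 through 20.0 ± 4.93 to 5.10 ± 1.49 CPM (-2.95, adjusted p = 1.79e-07). Cxcl10, Mx1 and Irf9 were the members that rose in YFP- cells (log2 changes 2.82, 1.29 and 1.05, adjusted p = 0.0029, 0.0053 and 0.0089), and Cxcl10 went from 0.651 ± 0.232 CPM through 4.49 ± 0.507 to 0.473 ± 0.321. Gbp2, Gbp5 and Cxcl10 were lower in YFP+ than in YFP- cells (log2 changes -2.63, -2.61 and -3.75, adjusted p = 0.0014, 3.39e-05 and 0.0013). Socs1, an interferon target as well, was also lower in YFP+ than in YFP- cells, with the limits given above. No pathway gene called as deposited changed sign under any of the 4 other scalings.

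Genes whose pattern lay closest to a member were found by the root mean square (RMS) difference over the 12 samples, after each gene was centred on its own mean log2 CPM, among 8069 protein-coding genes (8070 for Socs3 and Socs5) with a mean log2 CPM of at least 2. Nearest to Cish were Grwd1 (RMS difference 0.140), Il1rap (0.153) and Arl14ep (0.162), where the median gene differed by 1.05. Nearest to Socs4 were Prrc1 (0.105), Cnih1 (0.113) and Ssr2 (0.114), beside a median of 0.605. The nearest genes were Rras2 (0.199), Nsd2 (0.206) and Maff (0.211) for Socs1, and Numa1 (0.189) and Fahd2a (0.196) for Socs2. Socs7 was closest to Wdr48 (0.149), Csf2ra (0.149) and Wdr70 (0.154), Socs6 to Wrap73 (0.121), Psen2 (0.122) and Senp8 (0.130), and Socs5 to Spty2d1 (0.161), Ddx24 (0.176) and Kdm4a (0.182). Socs3 had no gene nearer than Wwox (0.276), followed by Ankzf1 (0.286) and Rftn1 (0.309). None of the genes named here was another member of the family. Socs3 and Socs5, with means below the limit of 2, were not among the genes compared and could not be named.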

How the data were processed

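RNA was harvested with the RNeasy Plus Micro kit and turned into cDNA with the SMARTer Ultra Low kit, and fragments were read as paired ends on a NovaSeq, per the labels' protocols. The submitters' processing notes name bcl2fastq, STAR 2.7.9a, Subread, featureCounts 2.0.3 and GRCm38, with no order or strand setting. What the authors deposited is a single table of log2 CPM with a prior, 12 samples wide, per the file headers. Of its 55774 lines, 287 repeats were dropped, leaving 55487 features, and the header had 0 columns without a sample. Each deposited log2 value equals log2 of the CPM after a prior of 0.5 reads, scaled by library size, was added, within 5.15e-14, so 100% of values gave whole reads (within 0.01 reads), from which CPM and reads were taken. The labels' protocols name no molecular identifiers, so the floor of 3 reads covers counting error only.

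The 12364 genes whose deposited log2 CPM exceeded 0 in 4 or more samples were fitted in limma 3.58.1 (R 4.3.3) with 1 coefficient per group over all 12 samples, contrasts and eBayes with a trend, and Benjamini-Hochberg adjustment over all genes. Simulated data with known changes were used to check the code. Library-size differences in rRNA-like reads (359 features) enter CPM, so 4 other scalings were run. The 28 alternatives comprise the replicate block, fits of 8 samples, filters, a pseudocount, scalings, weights, the variance trend, a threshold of 0.01 and labels left out. Of these, the 12 that leave out a single library were chosen after seeing the data. Python 3.11.15 with pandas 2.3.3 and numpy 2.4.6 served for tables, and matplotlib 3.10.9 for figures. Exon length is the union of GENCODE M21 exons of a gene.

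All 8 members are named. Of each pathway list up to 3 called genes with the largest change per comparison are named, besides the Janus kinase and STAT genes, and for each member up to 3 nearest genes. Results on 2 genes that this rule names are not reported here. The members and lists were chosen with earlier results of these data known, and patterns those results showed are not independent support.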

Additional observations from a re-analysis of the deposited data

How the results depend on the processing

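Of 24 member results, 12 kept their direction and their side of the threshold in all 28 alternatives, the 10 calls against unstimulated cells among them. Of 672 member values, 51 were weaker, 8 stronger and 24 reversed, and 15 of 24 family shares moved when counted per read. Between YFP+ and YFP- cells the members called fell from 3 to 0 with only the 8 samples compared, 0 without a filter, 0 at adjusted p under 0.01, 1 under quantile normalization, 1 under centring and 1 under trimmed-mean scaling, and ranged from 0 to 2 with labels or libraries left out. All genes called there fell from 2691 to 1583 without a filter and 1466 at 0.01 (1571 to 3193 with labels or libraries left out), and pathway genes from 39 to 23 and 25 (27 to 43). Leaving out labels or libraries gave 5 to 6 members, 4717 to 6780 genes and 41 to 57 pathway genes in YFP-, and 5 to 6 members, 6464 to 7791 genes and 49 to 59 pathway genes in YFP+ against unstimulated cells. Signs between YFP+ and YFP- cells turned under quantile, centring and trimmed-mean scaling for Cish (0.0615, 0.26 and 0.18), Socs5 (0.17, 0.0869 and 0.0150) and Socs7 (0.18, 0.25 and 0.18). With labels or libraries left out, values between YFP+ and YFP- cells ran from -0.17 to 0.21 for Cish, -0.16 to 0.19 for Socs6 and -0.11 to 0.15 for Socs7, and Socs3 in YFP- against unstimulated cells ran from -0.41 to 0.17. The cause was not tested. With the replicate label as a block (replicate block), 5, 6 and 3 members were called, the sixth being Socs3 in YFP+ against unstimulated cells (adjusted p = 0.039 in limma). The labels do not say that equal labels share a mouse. Same-label samples correlated in their deviations by 0.03 (-0.06 to 0.10) on average in YFP- against unstimulated cells. The averages were 0.14 (-0.04 to 0.38) in YFP+ against unstimulated and 0.24 (0.05 to 0.37) in YFP+ against YFP- cells. In the last, YFP+ samples m2, m3 and m4 correlated best with the YFP- sample of their own label, and f2 did not. At the lowest, a member had 63 reads in a sample (Socs3).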
